A study of Mus musculus with 4 samples.

Results

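The genes described here encode sugar-binding proteins of the mouse prostate: C-type lectins, galectins with 1 galectin-binding glycoprotein, an intelectin and the granule lectin ZG16. They were chosen by symbol, as every row of the deposited table whose symbol begins with Clec or Lgals followed by a digit, together with Itln1 and Zg16. This gave 43 of the 23242 rows: 31 Clec genes, 10 Lgals genes including Lgals3bp, Itln1 and Zg16. Itlnb, a further intelectin named in the choice, has no row under that symbol and was not analysed here.

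Lectins read the glycans on cells, mucus and microbes. C-type lectins share a fold that in many members binds sugars with the help of calcium, and on macrophages and dendritic cells several of them act as receptors for fungal or damaged-cell ligands, while others are bound by receptors of natural killer cells. Galectins bind galactose-containing glycans, are made in the cytosol and leave the cell without a signal peptide. Intelectins are secreted lectins that bind microbial glycans and are known chiefly from mucosal epithelia.

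RNA was sequenced from prostate tissue (the ventral and the dorsal lobes) of FVB animals. The mutants were 2 animals (mice 26 and 29) homozygous for a TMPRSS2:ERG transgene and labelled ERG positive, and they were set against 2 wild-type animals (mice 27 and 28) labelled ERG negative. The transgene is a bacterial artificial chromosome with the TMPRSS2 locus, into which human ERG exons were placed behind a GFP flanked by loxP sites. After pronuclear injection of Cre protein, a single sub-line was bred to homozygosity, so both homozygotes come from 1 sub-line. The sources used here do not give ages.

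Values are FPKM (fragments per kilobase of transcript, relative to the library's total), scaled between libraries, so they can be compared between genes per length. The lowest values place the libraries between 42000000 and 47000000 fragments, an estimate, at which 1 fragment is worth between 0.0036 and 0.038 FPKM for the members. These figures use the longest GENCODE transcript of each member and are rough. Clec3a, at the upper end, was listed at 0.01038 scaled FPKM or less, under the value of 1 fragment. A gene was tested with limma when its mean over the 4 libraries was at least 1 scaled FPKM, and called at an adjusted p under 0.05. Differences are on the log2(scaled FPKM + 1) scale. Prostate epithelial markers were abundant in both genotypes, with Hoxb13 at 288 and 250 scaled FPKM in homozygotes (mice 26 and 29), against 238 and 237 in wild types (mice 27 and 28). Of 8 tested seminal vesicle genes 5 fell in homozygotes, and the wild types differed in them: Svs1 was at 3.83 and 1.05 scaled FPKM in homozygotes, against 3421 in wild-type mouse 27 and 236 in mouse 28. With 2 animals a genotype, an exact permutation test cannot give a two-sided p under 0.333. In whole tissue, fewer cells of a type and less RNA per cell cannot be told apart.

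Of the 43 members 16 were tested, and 27 lay under the filter. In homozygotes, Lgals3bp and Lgals7 rose and Itln1 fell, while the other 13 tested members did not pass. That is 18.8% of the tested members, against 7.65% of all 11762 genes tested, where 4.65% rose and 3.0% fell. At an unadjusted p under 0.05 limma had 7 of the 16 members, against 21.0% of all genes. The groups did not overlap in 10 of the 16 (62.5%), 3 of them higher and 7 lower in homozygotes, against 51.1% of all genes tested. The median log2 difference of the tested members was -0.08, and that of all genes tested was -0.003. Only 1 tested member, Clec7a, passed the filter through a single genotype.

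**Figure D1:**
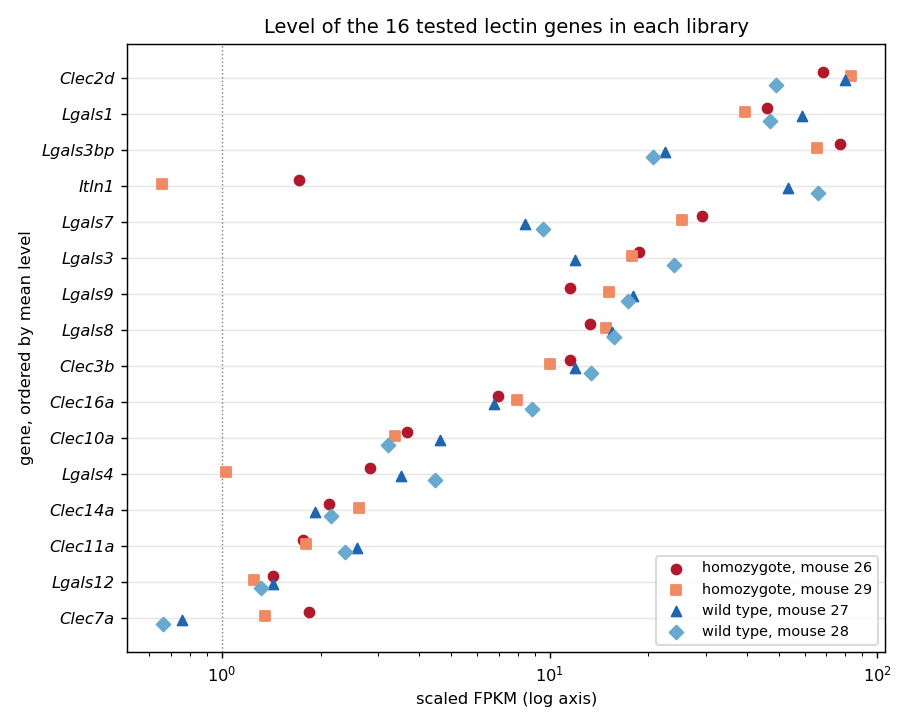
Scaled FPKM (log axis) of the 16 tested lectin genes, ordered by mean level, with 1 point for each library: red circles and squares for homozygotes, blue triangles and diamonds for wild types. The dotted line is at 1 scaled FPKM. Itln1 was at 1.71 and 0.655 in homozygotes, against 53.5 and 66.0 in wild types, while Lgals3bp and Lgals7 were higher in both homozygotes.

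Itln1 (Entrez 16429, minus strand of chromosome 1, 171518124 to 171535294, mm10) encodes intelectin-1, a secreted lectin that binds bacterial sugars. It was at 1.71 and 0.655 scaled FPKM in homozygotes (mice 26 and 29), against 53.5 and 66.0 in wild types (mice 27 and 28). Both wild types were far above both homozygotes, and the wild types lay closer to each other than the homozygotes did on the log scale. Means were 1.18 ± 0.747 in homozygotes and 59.8 ± 8.82 in wild types (SD, n = 2 each), a ratio of wild type to homozygote of 50.5. The log2 difference was -4.83 (SE 0.25, limma adjusted p = 5.93e-04), so Itln1 fell, and without a filter on low values the limma adjusted p was 0.076. In the wild types Itln1 ranked 1072 of all rows by level, and in the homozygotes 11328. Its log2 fold is -5.81 in the authors' deposited table. Of the seminal vesicle markers 5 of the 8 tested also fell and none rose, where 3.0% of all genes tested fell. A further 3 had a missing value in at least 1 library. Svs1 differed between wild-type mice 27 and 28 (3421 and 236 scaled FPKM) in the opposite order to Itln1 (53.5 and 66.0), and their part in the fall of Itln1 was not tested. The tested neighbours did not pass: Alyref2, 13.4 kb away, was at 2.55 and 2.00 scaled FPKM in homozygotes, against 2.71 and 2.19 in wild types, and F11r, 53.5 kb away, had a log2 difference of 0.15 (SE 0.11, limma adjusted p = 0.543). On the other side Cd244 (23.9 kb) and Ly9 (53.3 kb) lay under the filter and were not tested.

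Zg16, the other secreted lectin of this group, was named for the zymogen granules of pancreas and is also made by goblet cells of the gut. It was at 0.0663 scaled FPKM in homozygote mouse 26 and listed at 0 in homozygote mouse 29 and in both wild types. At this gene 1 fragment is worth about 0.031 FPKM, so the value of mouse 26 rests on very few fragments. Goblet cell markers were mixed: Agr2, a folding enzyme of mucous secretory cells, was at 936 and 782 scaled FPKM in homozygotes, against 602 and 391 in wild types (log2 difference 0.82, SE 0.26, limma adjusted p = 0.149). Tff3, a trefoil peptide, was at 10.1 and 0, against 6.69 and 4.32. Under the filter, Clca3, a secreted goblet cell protein, was at 0.0540 and 0.0127 in homozygotes, against 0.992 and 1.89 in wild types, and Spink4 at 0.101 and 0.0931, against 0.357 and 0.197. Both of these were lower in each homozygote, as was Itln1, and their part in its fall was not tested. None of the 3 tested goblet markers passed.

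Galectins were among the more abundant members, and their summed level was similar in the 4 libraries. The 9 galectin genes added up to 123 and 115 scaled FPKM in homozygotes, against 118 and 119 in wild types. Lgals7 made up 23.8 and 22% of that sum in homozygotes, against 7.16 and 8.0% in wild types. Lgals1, Lgals3, Lgals8 and Lgals9 together were at 89.7 and 87.4 scaled FPKM in homozygotes, against 104 and 104 in wild types. The sums and shares are descriptions and were not tested.

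**Figure D2:**
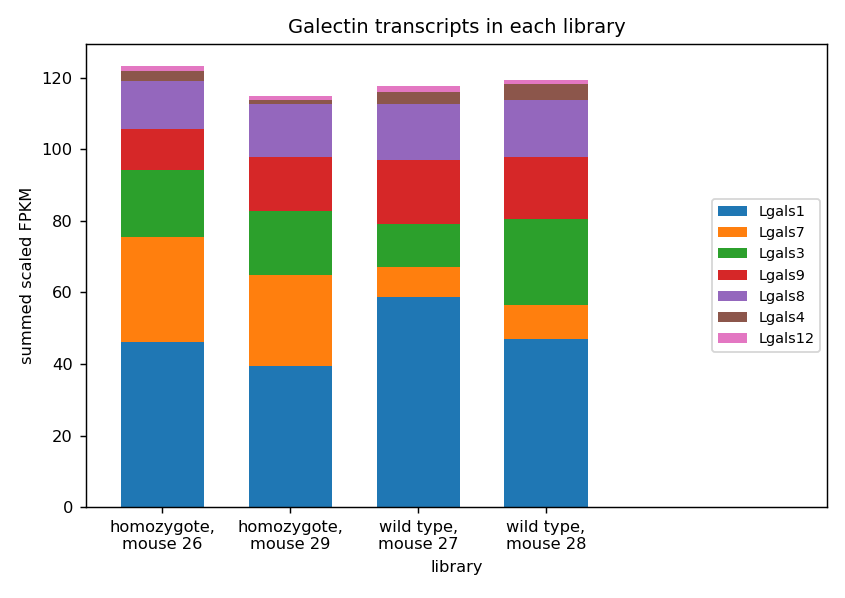
Stacked scaled FPKM of the galectin genes above 0 in each library, homozygotes on the left and wild types on the right. The Lgals7 layer (orange) was at 29.3 and 25.3 in homozygotes, against 8.42 and 9.56 in wild types, in columns of similar height.

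Lgals7 (Entrez 16858, plus strand of chromosome 7, 28864386 to 28866284) encodes galectin-7, a galectin of a single sugar-binding domain best known from stratified epithelia and as a p53-induced gene. Its level was 29.3 and 25.3 scaled FPKM in homozygotes, against 8.42 and 9.56 in wild types. Both homozygotes were above both wild types, with a wide gap between the groups. It averaged 27.3 ± 2.80 in homozygotes and 8.99 ± 0.805 in wild types (SD, n = 2 each), a ratio of 3.04. Lgals7 rose, with a log2 difference of 1.501 (SE 0.124, limma adjusted p = 0.0025), and without a filter the limma adjusted p was 0.0846. An antisense gene, Gm10648, overlaps Lgals7 in GENCODE. The sources used here do not state whether counting used strand, so reads of the pair cannot be told apart where they overlap. Markers of basal epithelium, another part of the epithelial layer, did not pass in any of 5 tested genes. Of these 5 genes 4 had a positive log2 difference and 1 a negative one, with a median of 0.31. Krt14, a keratin of basal cells, was at 10.3 and 9.5 scaled FPKM in homozygotes, against 5.98 and 8.02 in wild types. Krt5, another basal keratin, was at 66.0 and 64.4 in homozygotes, against 31.5 and 87.1 in wild types. The part of basal cells in the rise of Lgals7 was not tested. The neighbouring genes Ech1 and Actn4 had log2 differences of -0.05 and -2.50e-04 and did not pass.

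Lgals4, 22.7 kb before Lgals7, encodes galectin-4, a galectin with a pair of sugar-binding domains known from gut epithelium. It was at 2.82 and 1.03 scaled FPKM in homozygotes, against 3.52 and 4.48 in wild types. Both homozygotes were lower, and they differed more from each other than the wild types did. The log2 difference was -0.84 (SE 0.31, limma adjusted p = 0.194), and it passed only without homozygote mouse 26 (-1.29, limma adjusted p = 0.0223) and in the authors' deposited table (log2 fold -1.21, q-value 0.0037). Without homozygote mouse 29 it was -0.38 (limma adjusted p = 0.609). Its row overlaps that of Lgals6, a closely similar galectin that is listed at 0 in all 4 libraries, so the split of reads between them is uncertain.

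The remaining galectins with a test did not pass. Lgals1, a single-domain galectin of stroma and the most abundant of the family, was at 46.2 and 39.6 scaled FPKM in homozygotes, against 58.8 and 47.1 in wild types (log2 difference -0.29, 95% interval -0.67 to 0.09). Lgals9, which carries a pair of sugar-binding domains, was at 11.6 and 15.1, against 18.01 and 17.4 (log2 difference -0.39, 95% interval -0.76 to -0.03, limma adjusted p = 0.201). Homozygotes lay below wild types in both genes, by less than the adjusted test could call. Lgals8, a tandem-repeat galectin that marks damaged vesicles, was at 13.3 and 14.8 scaled FPKM in homozygotes, against 15.5 and 15.7 in wild types (95% interval of the log2 difference -0.41 to 0.12). Lgals3, the chimera galectin with a collagen-like tail, was at 18.7 and 17.9 in homozygotes, which lay between wild-type mice 27 and 28 at 11.9 and 23.9. Its difference turned on which wild type was used, at -0.37 without mouse 27 (limma adjusted p = 0.0586) and 0.58 without mouse 28 (limma adjusted p = 0.0152). Lgals12, known from adipocytes, was at 1.43 and 1.25 in homozygotes, against 1.43 and 1.31 in wild types. Lgals2 is listed at 0 in all 4 libraries although its log2 fold in the authors' deposited table is -3.64 (q-value 0.0765), so its 0 may be a failed estimate. Its row overlaps Cdc42ep1.

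Lgals3bp (Entrez 19039, minus strand of chromosome 11, 118392752 to 118401931) encodes a secreted, heavily glycosylated protein of the scavenger receptor family that galectins bind, and interferon is known to raise it. It was at 77.0 and 65.7 scaled FPKM in homozygotes, against 22.5 and 20.7 in wild types. Both homozygotes stood far above both wild types, which differed little. Means were 71.4 ± 7.99 in homozygotes and 21.6 ± 1.27 in wild types (SD, n = 2 each), a ratio of 3.30. Lgals3bp rose, with a log2 difference of 1.67 (SE 0.12, limma adjusted p = 0.00177), and without a filter the limma adjusted p was 0.0738. In level it stood at rank 938 of all rows in homozygotes and 2965 in wild types. Timp2, a metalloproteinase inhibitor gene 37.3 kb away, also rose, with 248 and 212 scaled FPKM in homozygotes, against 83.0 and 107 in wild types (log2 difference 1.27, SE 0.17, limma adjusted p = 0.0135). The closer neighbour Cant1, 4.36 kb away, did not pass (log2 difference 0.16, limma adjusted p = 0.473).

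**Figure D3:**
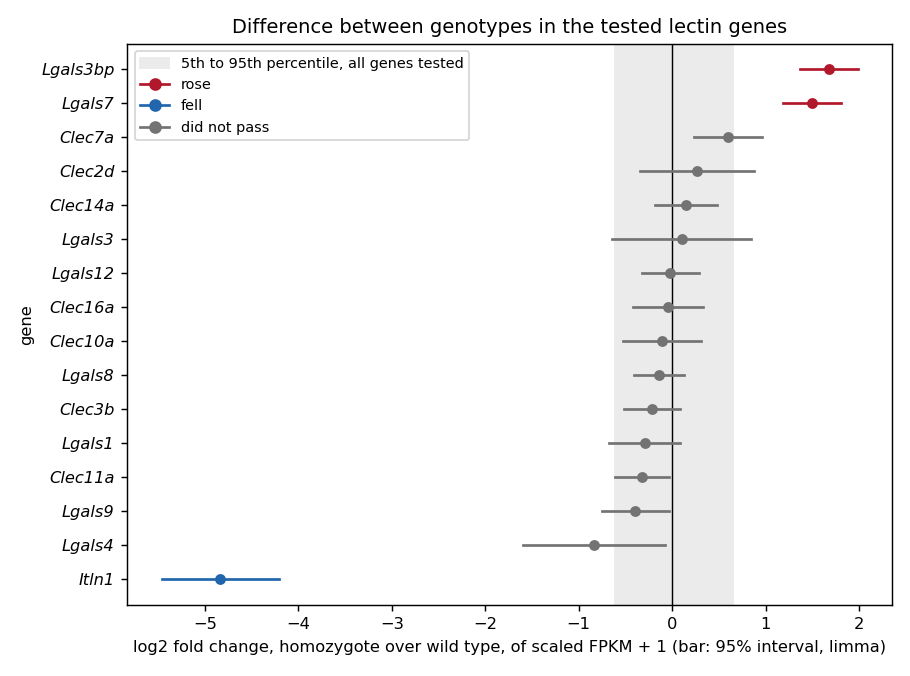
Log2 difference, homozygote over wild type, of the 16 tested lectin genes with 95% intervals from limma, in order of size. The grey band holds the 5th to 95th percentile of all genes tested, -0.61 to 0.651. Lgals3bp (1.67) and Lgals7 (1.501) lie above it, Itln1 (-4.83) and Lgals4 (-0.84) below it.

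The windows around the start sites of the 3 called genes are shown because these genes moved most, and the transgene encodes an ETS-family transcription factor. Each holds 250 bases before and 50 after the RefSeq start (GRCm38.p6, read 5′ to 3′ on the gene's strand), and capitals mark matches to the interferon regulatory factor core AANNGAAA.
Itln1, chr1:171535245-171535544, minus strand: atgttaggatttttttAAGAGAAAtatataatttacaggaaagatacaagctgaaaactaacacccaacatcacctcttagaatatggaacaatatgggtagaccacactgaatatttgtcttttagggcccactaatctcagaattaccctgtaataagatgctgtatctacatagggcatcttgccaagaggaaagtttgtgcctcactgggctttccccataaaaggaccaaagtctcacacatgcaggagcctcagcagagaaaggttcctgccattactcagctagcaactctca
Lgals7, chr7:28864136-28864435, plus strand: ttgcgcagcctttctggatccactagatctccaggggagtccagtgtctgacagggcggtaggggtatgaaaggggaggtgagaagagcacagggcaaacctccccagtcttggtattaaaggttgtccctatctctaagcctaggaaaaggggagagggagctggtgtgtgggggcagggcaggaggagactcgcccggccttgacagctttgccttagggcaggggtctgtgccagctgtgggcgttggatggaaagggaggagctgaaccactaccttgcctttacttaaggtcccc
Lgals3bp, chr11:118401910-118402209, minus strand: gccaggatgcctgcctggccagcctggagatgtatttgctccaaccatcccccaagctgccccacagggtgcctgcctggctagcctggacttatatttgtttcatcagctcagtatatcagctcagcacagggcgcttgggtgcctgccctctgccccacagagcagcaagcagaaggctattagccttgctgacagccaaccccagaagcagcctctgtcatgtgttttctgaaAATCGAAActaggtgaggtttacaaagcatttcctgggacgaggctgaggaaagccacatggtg
Searched on both strands, the core AANNGAAA occurs once in Itln1 (first base at position -234 from the start) and once in Lgals3bp (position -14), and not in the window of Lgals7. It occurs in 23.9% of the 32851 windows of this length, and in 6 of the 12 tested members that have a window. The ETS core with its flanking bases, searched as AGGAAG, is not in any of the 3 windows. It occurs in 35.4% of all windows and in 4 of the 12 tested members with one, namely Clec11a, Clec16a, Lgals4 and Lgals9. The core GGAA alone was not searched for among all windows. By eye, each of the 3 windows holds it within the letters AGGAAA, and those of Itln1 and Lgals7 also hold it within other letters. The share of GGAA over all windows was not counted. The androgen response element, searched as its palindromic consensus, is in none of the 33 members with a window and in 0.475% of all windows. The 3 motifs were searched separately, and those shown do not overlap another. Matches describe letters only and are not binding sites.

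Among the C-type lectins no member passed: 7 of 31 were tested and 24 lay under the filter, 22 of them under 1 scaled FPKM in every library. Of all genes tested 7.65% passed. Before adjustment 2 of the 7 had a limma p under 0.05, against 21.0% of all genes tested. The myeloid receptors were low throughout. The 17 of them summed to 10.4 and 8.71 scaled FPKM in homozygotes, against 10.8 and 7.02 in wild types, and wild-type mouse 27 was the highest library of the 4.

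Clec7a, or Dectin-1, the receptor of macrophages and dendritic cells for fungal beta-glucan, was at 1.85 and 1.35 scaled FPKM in homozygotes, against 0.755 and 0.661 in wild types. Both homozygotes were higher, with a ratio of means of 2.26. The log2 difference was 0.60 (SE 0.15, limma adjusted p = 0.0763), and Clec7a passed in the authors' deposited table (log2 fold 1.20, q-value 0.0373). It was 0.65 without wild-type mouse 27, 0.56 without wild-type mouse 28 and 0.73 without homozygote mouse 29. Without homozygote mouse 26 Clec7a lay under the filter and had no value. Dendritic cell markers under the filter were more often higher than lower in homozygotes. Itgax, an integrin, was at 0.866 and 0.875 in homozygotes, against 0.300 and 0.261 in wild types. Ccr7 was also higher (0.214 and 0.416, against 0.0642 and 0.0442), as was Siglech (0.459 and 0.455, against 0.339 and 0.309). Flt3 was higher too, at 0.0900 and 0.0837, against 0.0568 and 0.0725. Only the transcription factor gene Zbtb46 was lower, at 0.623 and 0.763, against 0.946 and 0.767. The groups overlapped in Batf3, Cd209a and Xcr1. The dendritic cell list had 1 of 2 tested genes rise, H2-Ab1 (log2 difference 0.62), an antigen-presentation gene, and summed to 123 and 103 scaled FPKM in homozygotes, against 80.2 and 65.3 in wild types. Most of that sum was Cd74, the MHC class II invariant chain, at 108 and 88.7 in homozygotes, against 69.3 and 56.1 in wild types, which did not pass (limma adjusted p = 0.0836). The macrophage list had 1 of 10 tested genes rise, Mertk (log2 difference 0.92), a receptor for apoptotic cells, and summed to 152 and 135 scaled FPKM in homozygotes, against 140 and 87.9 in wild types. Of all genes tested 4.65% rose. No marker of either list was at 0 in all libraries. Their part in the values of Clec7a was not tested.

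Clec10a, a macrophage receptor for galactose-type sugars, was the most abundant of the myeloid receptors. It was at 3.67 and 3.38 scaled FPKM in homozygotes, against 4.62 and 3.20 in wild types, and the groups overlapped (log2 difference -0.11, 95% interval -0.52 to 0.31). The other 15 lay under the filter, between 0 and 1.38 scaled FPKM. Clec4e (Mincle), a receptor for mycobacterial glycolipid, was at 0.0420 and 0.138 in homozygotes, against 0.0272 and 0.0111 in wild types. Clec12a, an inhibitory receptor of myeloid cells, was at 0.753 and 0.830, against 0.744 and 0.397. Clec4a1 of the DCIR family was at 0.696 and 0.619 in homozygotes, against 1.38 and 0.739 in wild types. Clec9a, the dendritic cell receptor for exposed actin, stood at 0.172 and 0.148, against 0.244 and 0.167. Clec4a4 and Clec4b2 were listed at 0 in every library.

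**Figure D4:**
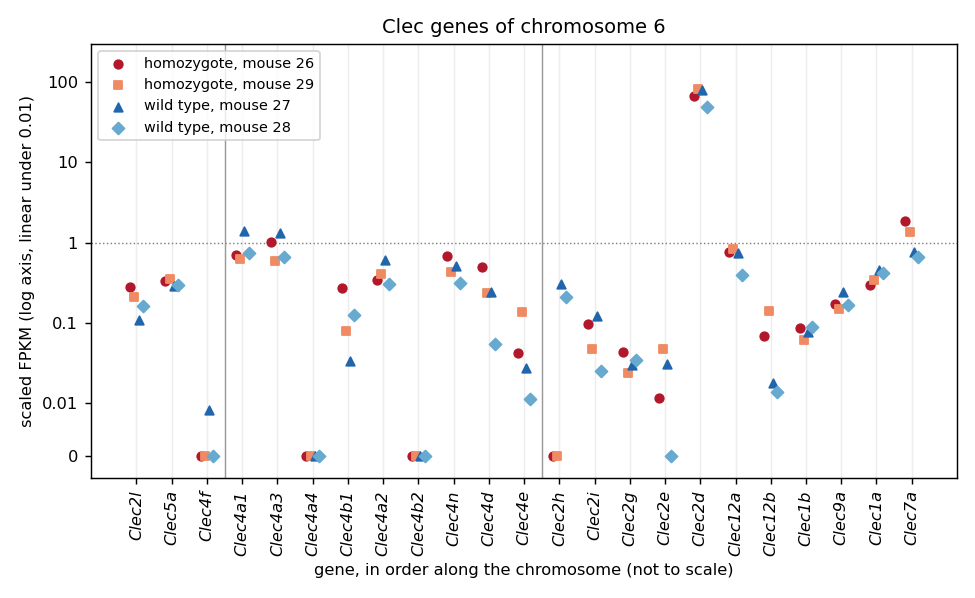
Scaled FPKM (log axis, linear under 0.01) of the 23 Clec genes on chromosome 6, in their order along it. Vertical lines separate 3 scattered genes, the 9 genes of the DCIR to Mincle cluster and the 11 genes of the natural killer gene complex. Clec2d stands alone at 49.0 to 83.1, and no other gene reaches 2.

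Most members lie on chromosome 6, 23 of 43, in the DCIR to Mincle cluster of 9 genes over 368 kb and in the natural killer gene complex, with 11 over 810 kb. All 9 genes of the DCIR to Mincle cluster had a mean under 1 scaled FPKM, as had 9 of the 11 in the other cluster. Clec2d, which encodes a ligand of the inhibitory natural killer receptor NKR-P1B, stood apart as the most abundant member of all. It was at 68.2 and 83.1 scaled FPKM in homozygotes, against 79.6 and 49.0 in wild types. The groups overlapped, since wild-type mouse 27 lay within the range of the homozygotes. The log2 difference was 0.27 (SE 0.25, 95% interval -0.34 to 0.87), and it was 0.61 without mouse 27 (limma adjusted p = 0.0284) and -0.078 without mouse 28. The receptor gene Klrb1b lay under the filter, at 0.126 and 0.06215 scaled FPKM in homozygotes, against 0.133 and 0.07645 in wild types. Lymphocyte markers were also low: the T and NK cell list summed to 3.95 and 4.48 scaled FPKM in homozygotes, against 6.06 and 3.37 in wild types.

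The other CLEC2 genes were all under the filter, at 0.303 scaled FPKM or less. Clec2h was listed at 0 in both homozygotes, against 0.303 and 0.209 scaled FPKM in wild types, and the authors' deposited table gives it a q-value of 0.0054 with a code in place of a fold. Clec2l was at 0.283 and 0.209 in homozygotes, against 0.109 and 0.164 in wild types.

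Endothelial and platelet C-type lectins were low, and none passed. Clec14a, an adhesion receptor of endothelium, was at 2.11 and 2.62 scaled FPKM in homozygotes, against 1.92 and 2.15 in wild types (log2 difference 0.15, 95% interval -0.19 to 0.48). Its partner in the vessel wall, Mmrn2, did not pass either (log2 difference -0.22, SE 0.12), and none of 8 endothelial markers passed. Clec1a was at 0.297 and 0.340, against 0.457 and 0.415, and Clec1b, the podoplanin receptor of platelets, at 0.0857 and 0.0604, against 0.0766 and 0.0878. Of the 5 soluble and other members 3 were tested, and none passed. Clec3b (tetranectin, a plasminogen-binding protein of stroma) was at 11.52 and 10.04 in homozygotes, against 11.9 and 13.3 in wild types (95% interval of the log2 difference -0.51 to 0.09). Clec11a, a growth factor of bone and blood progenitors, was at 1.77 and 1.80, against 2.59 and 2.37 (log2 difference -0.32, 95% interval -0.61 to -0.03, limma adjusted p = 0.191). Both homozygotes were below both wild types in Clec11a, and the 2 homozygotes were nearly equal. Clec16a, which despite its name acts in mitophagy, was at 6.98 and 7.94, against 6.77 and 8.82. Clec3a and Clec18a lay under the filter.

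Other genes of lectin biology were counted from lists. For comparison, 4.65% of all genes tested rose and 3.0% fell. A list of 63 further genes was drawn up for the C-type lectin domain, of which 62 had a row; it also held Kl, which has no such domain and lay under the filter. Of these 19 were tested, and 3 rose and none fell: the antimicrobial lectins Reg3b and Reg3g and Sftpd, a collectin that coats microbes. Reg3g was at 352 and 88.2 scaled FPKM in homozygotes, against 6.88 and 0.841 in wild types, and Reg3b at 224 and 54.2, against 1.505 and 0.464. Sftpd was at 1.57 and 2.85 scaled FPKM in homozygotes, against 0.154 and 0.133 in wild types (log2 difference 1.46, SE 0.21, limma adjusted p = 0.0166), and both Sftpd and Reg3b passed the filter through homozygotes alone. The list had a median log2 difference of -0.11. Of 18 signalling adaptors 13 were tested and none passed by limma. The shared receptor chains Fcer1g (log2 difference 0.70, SE 0.21) and Tyrobp (0.60, SE 0.21) and the lipid phosphatase Inpp5d (0.57, SE 0.15) were among the largest differences, and Plcg2 had -0.52 (SE 0.14). Syk, the kinase through which Clec7a signals, lay under the filter at 1.06 and 0.870 in homozygotes, against 0.646 and 0.650 in wild types.

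Among 16 partners and ligands of these lectins 3 of 13 tested genes rose and none fell, with a median log2 difference of 0.32. Of all genes tested 4.65% rose and 3.0% fell. Cd44, a hyaluronan receptor that galectins bind, was at 23.0 and 22.8 scaled FPKM in homozygotes, against 3.69 and 5.82 in wild types (log2 difference 2.08, SE 0.19, limma adjusted p = 0.0035). Lamp1, a lysosomal glycoprotein and galectin ligand, was at 519 and 448 scaled FPKM in homozygotes, against 283 and 287 in wild types (log2 difference 0.76, SE 0.16, limma adjusted p = 0.0485). The third was Sftpd. Of 20 further secreted lectins and mucous secretion genes 6 were tested and 1 fell, Pigr, the carrier of IgA into secretions, at 174 and 164 scaled FPKM in homozygotes, against 351 and 326 in wild types (log2 difference -0.999, SE 0.14, limma adjusted p = 0.0135). None of the sialic acid binding lectins reached the filter, and their sum was 2.51 and 2.13 scaled FPKM in homozygotes, against 2.03 and 1.75 in wild types.

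Further lists of cell markers differed in how many genes passed, where 4.65% of all genes tested rose and 3.0% fell. Mast cell markers summed to 126 and 99.6 scaled FPKM in homozygotes, against 11.2 and 12.4 in wild types, and 4 of 5 tested rose, of which Fcer1a (3.08 and 1.98 in homozygotes, against 0.132 and 0.130 in wild types) passed the filter through homozygotes alone. Luminal markers had 1 of 9 rise, Epcam. Smooth muscle markers summed to 1149 and 1342 scaled FPKM in homozygotes, against 2310 and 1633 in wild types, with none of 5 past the test. Neutrophil and B cell lists had no tested gene, and the fibroblast and platelet lists had none past the test. The part of these cells in the lectin values was not tested.

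**Figure D5:**
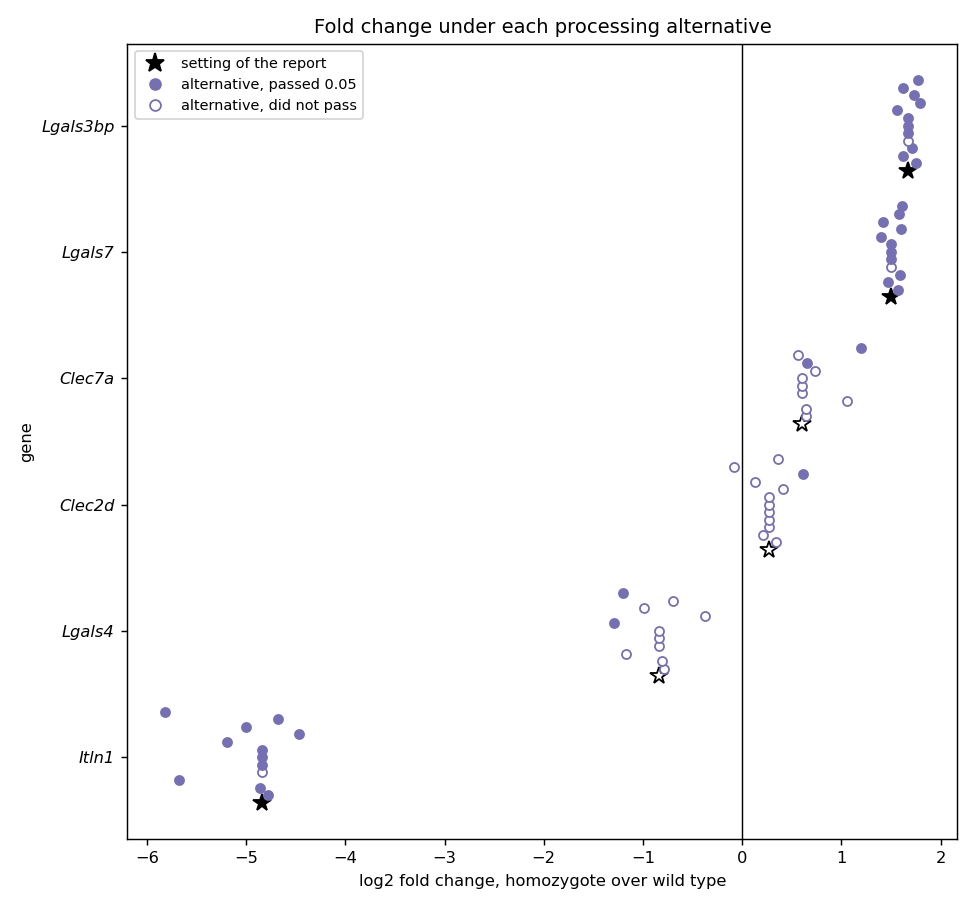
Log2 difference, homozygote over wild type, of 6 lectin genes under the settings of the report (stars) and under each alternative (circles), filled where the adjusted p or q-value was under 0.05. Lgals3bp spans 1.56 to 1.79, Lgals7 1.40 to 1.61 and Itln1 -5.81 to -4.47, each open only without a filter, while Clec2d crosses 0. The authors' fold is on their own scale, without the added 1.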

How the data were processed

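The table deposited by the authors holds FPKM per gene and library for 4 mice, with a unit read from the values. Reads were processed with TopHat 1.3 and Cufflinks 1.3 on mm10, per the submitters' processing notes, and the sources used here give no settings, annotation or use of strand. It also holds the authors' deposited log2 fold, p-value and q-value for homozygote against wild type, per the file headers. The value 99999, found in 7 genes, was read as a code and set to missing. Starts were raised by 1, since 7233 of 20826 symbols then share the GENCODE start, against 745 as deposited.

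FPKM were divided by median-of-ratios factors (1.01 and 1.04 for homozygote mice 26 and 29, 0.921 and 1.03 for wild-type mice 27 and 28). Log2(scaled FPKM + 1) of 11762 genes with a mean of at least 1 was fitted in R 4.3.3 by limma 3.58.1 (eBayes with trend, two-sided, Benjamini-Hochberg over all genes, threshold 0.05), and the fit was tested on simulated data. Of the genes tested 547 rose and 353 fell, with 60.8% of calls rises, against 73.0% without scaling. Groups come from the labels, which number each mouse, so each gene's own spread is that between 2 mice a genotype. The limma p-values combine it with the spread of other genes of similar level (prior degrees of freedom 3.62, residual 2). Members and lists were chosen with earlier results of these data known. The naming rule took called members, tested members with an absolute log2 difference of at least 0.5, the highest of each subfamily, and list genes called or with the 3 largest statistics. Other members, neighbours and list genes were named after their values were seen.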

Additional observations from a re-analysis of the deposited data

How the results depend on the processing

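Itln1, Lgals7 and Lgals3bp kept their direction under all 12 alternatives and passed in 11, the exception being no filter on low values, where the limma adjusted p was 0.076, 0.0846 and 0.0738. Without a filter 126 genes and 0 members passed limma, with 8 members at an unadjusted p under 0.05. The authors' deposited table calls 2034 genes and 6 members. With 1 library left out, with the lone library taken to be as variable as the remaining pair, 355 (without mouse 26) to 2028 (without mouse 27) genes passed, and 3 to 5 members. Without wild-type mouse 27, 5 members passed, Clec2d and Clec7a with the called 3. The cause was not tested. Of the members that did not pass, Clec16a, Lgals12, Clec10a, Clec2d and Lgals3 changed sign under at least 1 alternative. Clec16a was at 0.019 without scaling and -0.218 to 0.121 with 1 library left out. Lgals12 was at 0.028 without scaling, 0.042 with quantile normalization, 0.0119 in the authors' deposited table and -0.0713 to 0.0387 with 1 library left out. With 1 library left out, Clec10a ranged over -0.314 to 0.105, Clec2d over -0.0779 to 0.609 and Lgals3 over -0.372 to 0.578, and Lgals3 was at -0.0631 in the authors' deposited table. A minimum mean of 5 left no value for 6 members, and leaving out homozygote mouse 26 left none for Clec7a. No paired analysis was possible because the labels give each mouse its own number. The table gives no counts, and members at a few hundredths of an FPKM rest on few fragments.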
